A study of Mus musculus with 3 samples.

Results

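Sebocytes, the lipid-producing cells of the sebaceous gland, were picked out of single-cell RNA libraries of healing mouse skin by the transcripts Far2, Scd1 and Awat2. A cell was a member when its unique molecular identifiers (UMIs, each 1 captured transcript) of the 3 genes summed to 5 or more with at least 2 of Far2. Cells with more than 1 UMI of the adipocyte genes Plin1, Cidec and Adipoq, or more than 3 of the hair genes Krt35 and Krt71, were not taken. The rule found 378 of 26953 kept cells, which were 116 of 6039 in the untreated library, 114 of 11302 in the GelMA library and 148 of 9612 in the library of GelMA loaded with apoptotic neutrophils (AN-GelMA). Because the rule reads Far2, Scd1 and Awat2, their levels are given only as a description.

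All 3 libraries came from dorsal skin of female C57BL/6J mice wounded on postnatal day 50, with a splinted full-thickness excision of 5 mm. One wound group was left untreated (titled Sham), one received 20 µL of GelMA, a gelatin hydrogel hardened in the wound by 1 min of UV light, and one received the same gel carrying apoptotic neutrophils. Tissue was taken at 5 days with a 2 mm margin of intact skin, fixed for 24 h, dissociated, and measured with gene-specific probe pairs (10x Flex), so uninjured glands at the edge and any gland near the wound are in the same library. The libraries held 8945496, 21613482 and 14156692 UMIs over 19070 probed genes. Each group is 1 library, and the number of mice behind it is not given in the labels. Differences between libraries therefore have no replicate check: no p-value is given, every interval is a 95% counting interval only, and treatment, animal and library cannot be told apart.

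Sebocytes mature from basal cells at the gland's rim, fill with lipid droplets as they move inward, and finally burst, so that the whole cell becomes sebum (holocrine secretion). Fatty acids are made by Fasn, lengthened by the Elovl enzymes and desaturated by Scd1; Far1 and Far2 reduce them to fatty alcohols, and the Awat and Dgat enzymes join alcohols or glycerides to fatty acids to make wax esters and triacylglycerols. Cholesterol is made and esterified by Soat1, and Pparg, a nuclear receptor, is a known driver of the lineage.

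The GelMA library stood apart before any sebocyte gene was read. Its members held more UMIs, with a median of 3103.5 against 1818 in the untreated and 2308.5 in the AN-GelMA members. Its non-members carried far more hair-sheath RNA, with 5186 CPM (counts scaled to depth, UMIs of a gene per 1000000 UMIs of the cells) of Tchh against 319.9 and 36.5. Pairs of libraries shared 94 to 135 cell barcodes, 0 of them between members, and the doublet caller marked 0 cells in each library, so doublets were handled by leaving out the 5% of cells with the highest doublet scores as an alternative.

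Sebocytes were 1.92% of kept cells in the untreated library (95% Clopper-Pearson interval 1.59 to 2.299), 1.01% in the GelMA library (0.833 to 1.21) and 1.54% in the AN-GelMA library (1.30 to 1.81). The GelMA share was the lowest of the 3, and its interval did not reach those of the other libraries, whose intervals overlapped. Counted among cells with 5 or more UMIs of the basal keratins Krt5 and Krt14 together, with all members added, the shares were 13.0%, 5.31% and 9.89%, in the same order. The order turned when members were chosen by 5 or more UMIs of Awat1, Mc5r, Elovl3, Soat1, Cidea and Dgat2 in place of the rule genes, which gave 2.19%, 3.02% and 1.83%. That choice added 248 GelMA cells, 235 of them with 0 UMIs of Far2, in which Flg, a gene of granular keratinocytes, summed to 31457 CPM; in the GelMA cells that both rules took, Flg was at 860.3 CPM.

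**Figure D1:**
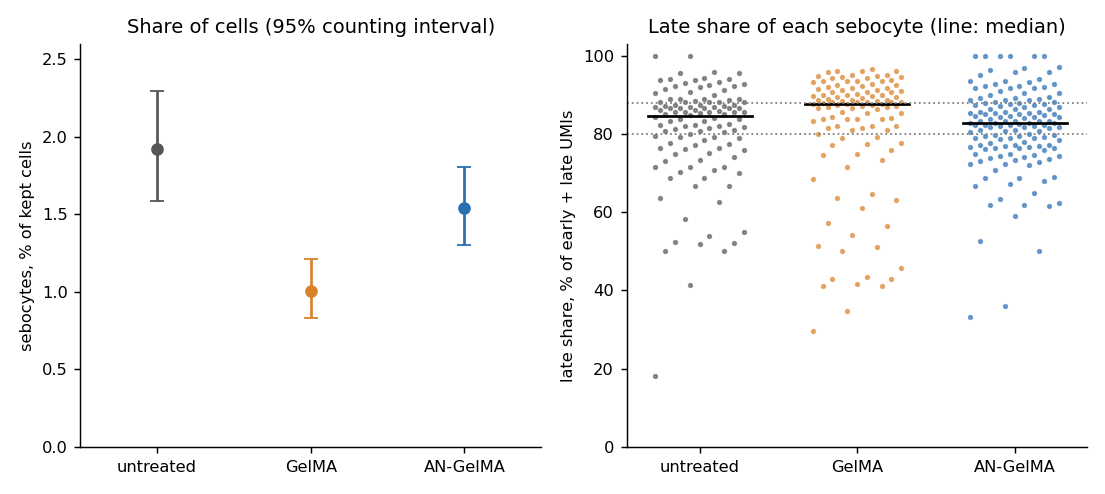
Left, sebocytes as a percentage of kept cells in each library, with 95% counting intervals: 1.92% untreated, 1.01% GelMA and 1.54% AN-GelMA. Right, the late share of each sebocyte (UMIs of late genes as a percentage of early plus late UMIs), 1 point per cell, with the library median as a line and the cuts between bands dotted at 79.96% and 87.8%.

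Members with exactly 2 Far2 UMIs numbered 10 untreated, 11 GelMA and 12 AN-GelMA cells, and 4, 3 and 10 cells with 1 Far2 UMI would otherwise have passed. In the untreated library Soat1 stood at 700.1 CPM in the first set and 4122 CPM in the second, from 12 and 27 UMIs, so there the cells just outside were not poorer in that lipid gene. In the GelMA library the order was the opposite, with 2010 CPM inside and 135.4 outside, and in the AN-GelMA library the values were 1784 and 1392 CPM. A further 15 GelMA cells reached a sum of 5 with 0 Far2 UMIs, against 2 untreated and 4 AN-GelMA cells.

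Sebocyte markers outside the rule were high in members too. Of 15 tested, 13 were at least 1.5 times higher than in the other cells of all 3 libraries; over all 4698 genes tested this held for 18.8% (884 genes), with 404 (8.6%) lower. The exceptions among the 15 were Dgat2 and Prdm1. Of the rule genes, Far2 (ENSMUSG00000030303) stood at 4275, 4857 and 4390.1 CPM in untreated, GelMA and AN-GelMA sebocytes and at 9.48, 12.9 and 9.82 CPM in the other kept cells of those libraries. Scd1, the desaturase, was at 5018, 7625 and 5614 CPM against 52.8, 101 and 47.6. Awat2, a wax synthase, gave only 4, 6 and 13 UMIs in all members, so the rule rests in practice on Far2 and Scd1. Cidea, a droplet protein outside the rule, was at 339.3, 373.4 and 391.6 CPM in sebocytes against 0, 14.5 and 0 CPM in the adipocytes of the same libraries, taken as cells with 5 or more UMIs of Plin1, Cidec and Adipoq and 0 of Far2.

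The genes that set sebocytes furthest apart from the other cells were, after Far2, the cytochrome Cyp2g1, the serpin Serpina3j, the fatty acid 2-hydroxylase Fa2h, the peroxisomal oxidase-like Acoxl and the lipase Pnpla5. In the library where the gap was smallest, Cyp2g1 was 288-fold, Serpina3j 278-fold, Fa2h 238-fold, Acoxl 175-fold and Pnpla5 164-fold above the other kept cells. Serpina3b, Zfp872, Cyp2j12, the carboxylesterases Ces1d and Ces4a, the channel Panx3, the monoglyceride lipase Mgll (77.3-fold), the acetyl-CoA carboxylase Acacb and Scd1 completed the first 15. Since the cells were chosen on 3 transcripts of the same libraries, these folds describe the members and test nothing. Serpina3j and Serpina3b belong to a multigene cluster, as do the Cyp2 and Ces genes, and whether probes crossed between near copies was not tested.

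Promoters are shown for 5 picked genes: Pnpla5, Mgll and Insig1, which were higher in GelMA sebocytes, and Acsbg1 and Serpina3j, which were lower. Each is the 250 bases before the RefSeq start on GRCm38.p6, read 5′ to 3′ on the gene's strand, with capitals marking CCAAT on either strand, a box bound by the factor NF-Y, and CACGTG, an E-box of the kind bound by basic helix-loop-helix factors. The windows are chr15:84123176-84123425 on the minus strand for Pnpla5, chr6:88724162-88724411 on the plus strand for the first of 2 Mgll starts, chr5:28071162-28071411 on the plus strand for Insig1, chr9:54661886-54662135 on the minus strand for Acsbg1 and chr12:104314320-104314569 on the plus strand for Serpina3j.
Pnpla5: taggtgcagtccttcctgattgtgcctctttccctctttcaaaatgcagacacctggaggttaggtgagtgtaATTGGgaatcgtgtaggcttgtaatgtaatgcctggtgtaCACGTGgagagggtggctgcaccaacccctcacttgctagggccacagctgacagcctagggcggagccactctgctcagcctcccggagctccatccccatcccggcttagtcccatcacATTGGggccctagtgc
Mgll: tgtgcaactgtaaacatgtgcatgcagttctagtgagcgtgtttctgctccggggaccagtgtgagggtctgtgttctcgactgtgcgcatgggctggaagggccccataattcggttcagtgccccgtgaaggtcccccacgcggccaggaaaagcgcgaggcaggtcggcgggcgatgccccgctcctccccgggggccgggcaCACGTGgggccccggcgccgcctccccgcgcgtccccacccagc
Insig1: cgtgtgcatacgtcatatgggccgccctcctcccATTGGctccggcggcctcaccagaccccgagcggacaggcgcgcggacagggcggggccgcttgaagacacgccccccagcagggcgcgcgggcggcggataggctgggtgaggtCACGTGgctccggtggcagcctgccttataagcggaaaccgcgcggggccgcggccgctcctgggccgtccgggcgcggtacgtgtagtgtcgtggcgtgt
Acsbg1: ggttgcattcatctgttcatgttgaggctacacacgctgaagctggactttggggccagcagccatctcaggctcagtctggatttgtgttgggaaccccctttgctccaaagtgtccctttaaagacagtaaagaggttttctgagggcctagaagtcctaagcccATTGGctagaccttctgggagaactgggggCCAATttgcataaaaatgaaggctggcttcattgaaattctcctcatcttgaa
Serpina3j: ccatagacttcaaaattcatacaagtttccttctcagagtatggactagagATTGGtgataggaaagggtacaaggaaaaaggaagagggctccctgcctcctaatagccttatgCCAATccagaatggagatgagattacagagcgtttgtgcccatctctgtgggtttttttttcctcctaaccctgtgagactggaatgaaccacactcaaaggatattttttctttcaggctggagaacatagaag
Pnpla5 holds CACGTG 137 bases before its start and Insig1 holds it 101 bases before, Mgll has it 44 bases before, and neither Acsbg1 nor Serpina3j has one in this window; the second Mgll start held neither motif. These 5 were picked, and the interval of Insig1 was not wholly past 1.5 times. Over all matched genes with the interval wholly past 1.5 times, CACGTG was in 5 of 40 higher in GelMA than untreated (12.5%) and 2 of 65 lower (3.08%), against 9.43% of 3806 tested genes. CCAAT on either strand occurred 177 and 16 bases before the Pnpla5 start, 216 before Insig1, 83 and 53 before Acsbg1, and 199 and 135 before Serpina3j. On both strands CCAAT was found in 34.46% of 27025 promoters and CACGTG in 6.046%. Among cholesterol genes, 13 of the 15 matched to RefSeq held CCAAT, and of the 15 leading genes 7 of 10 matched did. A match here describes letters in a window, not a bound site.

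Most tested genes of the sebum pathways were higher in members than in the other cells. Over all 4698 genes tested, 18.8% were at least 1.5 times higher in all 3 libraries and 8.6% lower. All 8 tested genes of fatty acid synthesis, all 12 of elongation and desaturation, 20 of 21 of cholesterol synthesis and esterification, 11 of 12 of the peroxisome and 9 of 11 of droplets and lipases were at least 1.5 times above the other cells in all 3 libraries. The share was smaller for wax ester and triacylglycerol assembly, with 8 of 13 higher and 1 lower, and for fatty acid uptake, binding and activation, with 10 of 13 higher and 1 lower. Fa2h, which puts a hydroxyl group on fatty acids, was at 2286, 2701 and 2507 CPM in untreated, GelMA and AN-GelMA sebocytes against 9.60, 9.39 and 6.33 in other cells. It was nearly level across the 3 libraries. In the lysosome list, which holds enzymes of holocrine breakdown, 2 of 12 tested genes were higher and 4 lower than in the other cells. Its higher share was thus near the 18.8% of all genes.

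**Figure D2:**
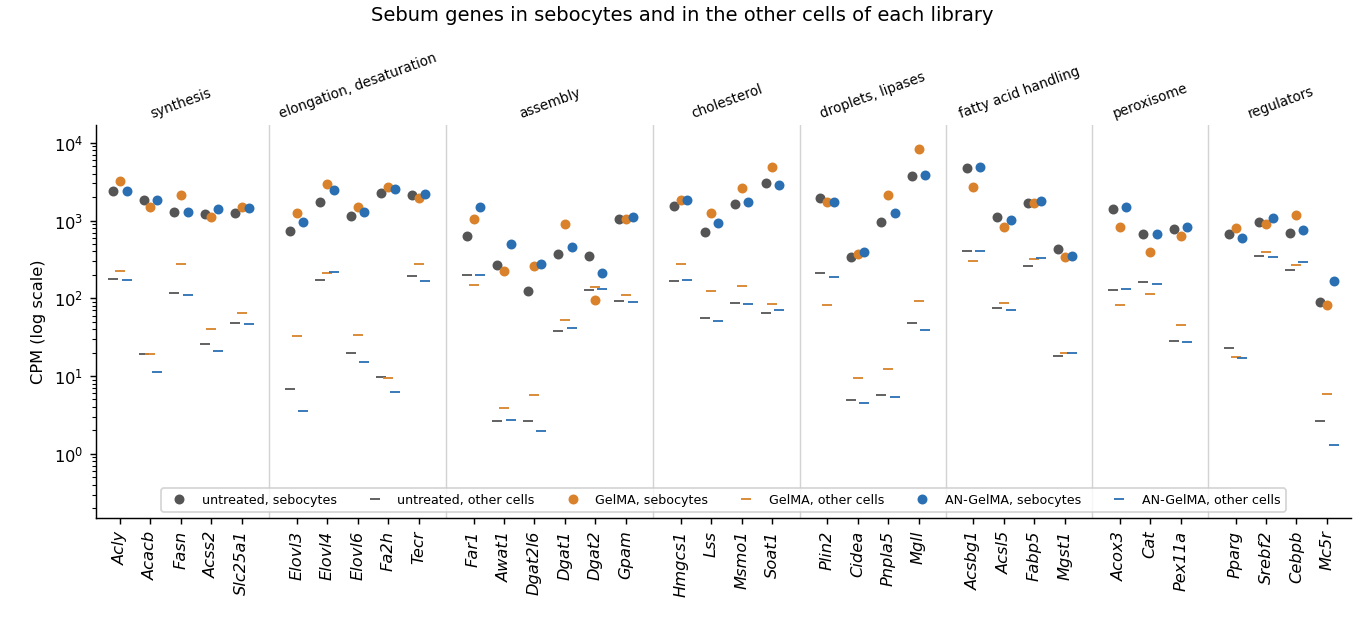
CPM (log scale) of sebum genes in sebocytes (points) and in the other kept cells (dashes) of the untreated, GelMA and AN-GelMA libraries, grouped by role. The points lie above the dashes of the same gene and library except for Dgat2 in the GelMA library, at 95.4 CPM in sebocytes and 139.7 CPM in the other cells.

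Between GelMA and untreated sebocytes, Mgll, Pnpla5, Dgat1, several elongation genes and Insig1 were higher in the GelMA library, and Serpina3j, Serpina3b, Cyp2g1 and Acsbg1 were lower. Of 4698 genes tested, 643 (13.7%) were at least 1.5 times higher and 721 (15.3%) at least 1.5 times lower, 29% in all; the median log2 ratio of all genes was -0.05. Held to genes whose counting interval lay wholly past 1.5 times, 54 were higher (1.15%) and 83 lower (1.77%), 2.92% in all. The list counts below are to be read against 13.7% and 15.3%. In counts simulated for this comparison, 12.85% of unchanged genes passed 1.5 times and 0.02223% had the interval wholly past it. Part of the 1.5-times counts of genes and lists, here and below, can therefore be counting error. The simulated counts held no spread between cells. They therefore do not cover intervals past 1.5 times that rest on 1 member.

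The lipases Mgll and Pnpla5 and the acyltransferase Dgat1 were well counted and higher in GelMA, while the triacylglycerol lipase Pnpla2 was lower. Of 11 tested droplet and lipase genes, 5 were at least 1.5 times higher and 1 lower, with a median log2 ratio of 0.51. Mgll (ENSMUSG00000033174), which frees the last fatty acid from a monoglyceride, was at 3737 CPM in untreated, 8262 in GelMA and 3838 in AN-GelMA sebocytes. The untreated and AN-GelMA libraries were nearly level and GelMA stood above both, by 1.14 on the log2 scale over untreated (1.04 to 1.25), from 881 and 2943 UMIs. Per cell the medians were 30.0, 76.0 and 27.9 Mgll UMIs per 10000, with highest values of 102, 202 and 104, so the libraries' cells overlapped. Pnpla5, a lipase of the patatin family, was at 950.1, 2128 and 1249 CPM, a log2 ratio of GelMA over untreated of 1.16 (0.95 to 1.38). Dgat1, which completes triacylglycerol, was at 373.2, 904.0 and 455.0 CPM with a log2 ratio of 1.28 (0.93 to 1.63). Pnpla2, which starts the breakdown of triacylglycerol, was at 212.1, 98.3 and 171.0 CPM from 50, 35 and 62 UMIs, a log2 ratio of -1.11 (-1.78 to -0.46). After thinning each member to 1000 UMIs, Mgll was found in 78.0% of untreated, 90.8% of GelMA and 82.4% of AN-GelMA members (82.8%, 94.7% and 89.9% unthinned), against 2.93%, 11.01% and 2.86% of basal keratinocytes. Median depths before thinning were 1649.5, 1811 and 1591 UMIs in those basal cells. Thinning left out 16, 5 and 17 members.

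Under the choice of members by genes outside the rule, the log2 ratios of GelMA over untreated were 0.12 for Mgll, 0.47 for Pnpla5 and 0.61 for Dgat1, over a set that holds 58 added cells beside 74 sebocytes in the untreated library and 248 beside 93 in the GelMA library. The other kept cells moved the same way, with log2 ratios of 0.95 (0.80 to 1.11) for Mgll at 48.3 and 93.4 CPM, 1.07 (0.63 to 1.54) for Pnpla5 and 0.45 (0.27 to 0.63) for Dgat1; their share of free sebocyte RNA was not tested.

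Elongation genes leaned towards GelMA: 6 of 12 tested were at least 1.5 times higher and 0 lower, with a median log2 ratio of 0.58 against -0.05 over all genes. Elovl4, which makes very long chains, was at 1731, 2922 and 2487 CPM in untreated, GelMA and AN-GelMA sebocytes, a log2 ratio of GelMA over untreated of 0.76 (0.59 to 0.92). Elovl3 was at 738.0, 1249 and 954.1 CPM, Elovl5 at 390.2, 682.2 and 366.8, and the elongase partner Hsd17b12 at 296.9, 567.1 and 372.3. In each of these GelMA was highest, while Tecr, the last enzyme of the cycle, was at 2121, 1923 and 2201 CPM and Hacd3 at 1154, 923.6 and 990.0 CPM. The list median fell to 0.30 when the 3 bands of the late share described below weighed equally in each library. It was 0.06 under the choice by genes outside the rule.

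Fatty acid synthesis was nearly level as a list, with 2 of 8 genes higher, 0 lower and a median of 0.10. Fasn, the fatty acid synthase, was at 1289, 2142 and 1282 CPM, 0.73 higher on the log2 scale in GelMA than in untreated sebocytes (0.54 to 0.93). The other kept cells differed more, at 115.8 and 272.0 CPM, a log2 ratio of 1.23 (1.13 to 1.33). Me1, a source of NADPH, was the second, at 89.1, 151.6 and 79.97 CPM. Acly, Acss2, Slc25a1, Acaca and Acacb stayed within 1.5 times between GelMA and untreated.

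Cholesterol genes split. Of 21 tested, 7 were higher in GelMA and 2 lower, with a median log2 ratio of 0.17. Soat1, which esterifies cholesterol, was at 3062, 4820.2 and 2854 CPM, a log2 ratio of 0.65 (0.53 to 0.78); Insig1, which holds the sterol sensor in the endoplasmic reticulum, was at 712.6, 1165 and 620.5 CPM, a ratio of 0.71 (0.45 to 0.98). Insig1 moved more in the other cells of the library, from 48.3 to 207.6 CPM. Dhcr7, Lss and Msmo1, enzymes of the later steps, were also highest in GelMA, with Dhcr7 at 76.3, 266.7 and 162.7 CPM. Acat2, an acetyl-CoA acetyltransferase, was among the lower genes, at 199.3, 123.5 and 237.2 CPM.

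In the assembly of wax esters and triacylglycerols, Dgat1 and Dgat2 went opposite ways. Dgat2, the second enzyme that makes triacylglycerol, was at 352.0 CPM in untreated, 95.4 in GelMA and 212.3 in AN-GelMA sebocytes, from 83, 34 and 77 UMIs. GelMA was 1.88 lower on the log2 scale than untreated (interval -2.504 to -1.29), and the AN-GelMA library lay between them. In basal keratinocytes the same gene was higher in GelMA, at 33.7 and 76.3 CPM. Far1, Dgat2l6, Lpin2 and Lpin3 were at least 1.5 times higher in GelMA with Dgat1, so the list counted 5 of 13 higher and 1 lower.

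**Figure D3:**
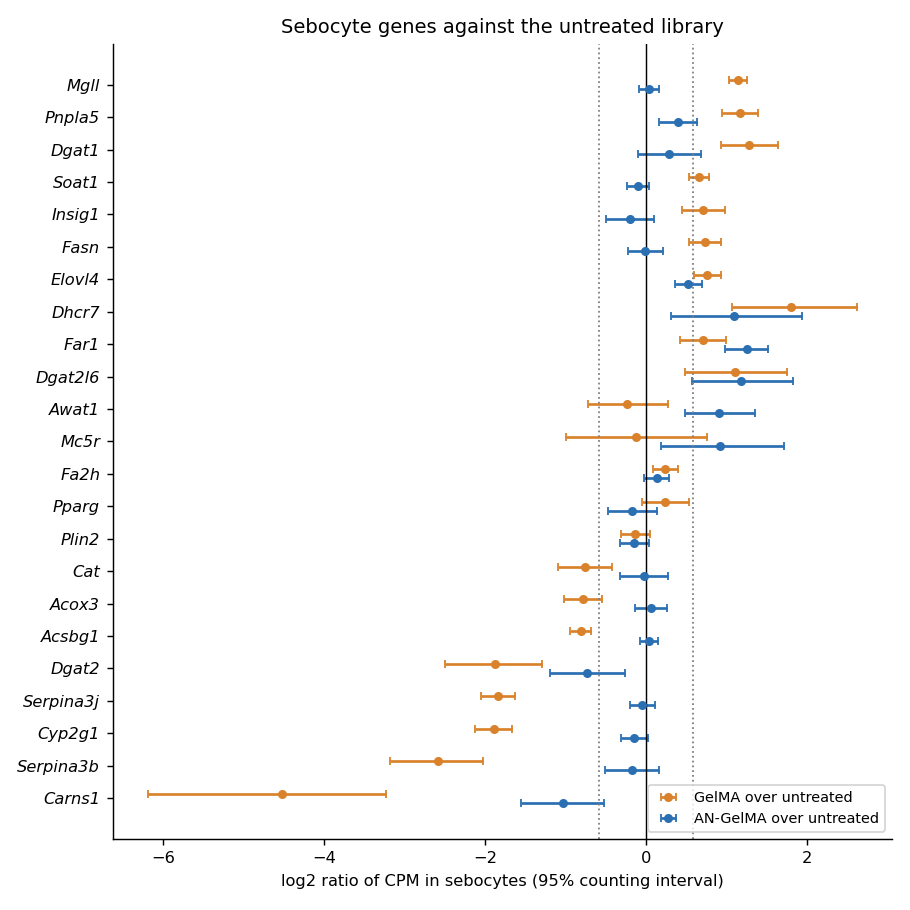
Log2 ratio of CPM in sebocytes, GelMA over untreated (orange) and AN-GelMA over untreated (blue), with 95% counting intervals; dotted lines mark 1.5 times either way. The orange intervals of Mgll, Pnpla5 and Dgat1 lie above and those of Acsbg1, Dgat2, Serpina3j, Cyp2g1, Serpina3b and Carns1 below the dotted lines, while the blue point of each of these 9 genes lies nearer to 0.

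Among regulators, Pparg was at 670.1, 791.7 and 595.6 CPM and Srebf2, the sterol-responsive factor, at 962.8, 904.0 and 1067 CPM, each within 1.5 times between any pair of libraries. Srebf1, which drives fatty acid genes, was at 50.9, 140.4 and 60.7 CPM from 12, 50 and 22 UMIs, a log2 ratio of GelMA over untreated of 1.46 (0.53 to 2.51). Cebpb was at 695.6, 1162 and 750.1 CPM, and Hsd17b2, which inactivates sex steroids, at 59.4, 174.1 and 68.9 CPM. Of 20 tested, 6 regulators and receptors were higher in GelMA and 1 lower.

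Lower in GelMA sebocytes were genes that mark the sebocyte as strongly as the lipases do. Serpina3j was at 2575 CPM in untreated, 721.5 in GelMA and 2496 in AN-GelMA sebocytes, a log2 ratio of GelMA over untreated of -1.84 (-2.05 to -1.62). Cyp2g1 was at 2231, 600.8 and 2016 CPM (-1.89, from -2.13 to -1.66) and Serpina3b at 555.6, 92.6 and 490.9 CPM (-2.58, from -3.18 to -2.02). In all 3 genes the untreated and AN-GelMA libraries were nearly level and GelMA alone was low. Thinned to 1000 UMIs, 66% of untreated, 27.5% of GelMA and 62.6% of AN-GelMA members held a Serpina3j UMI (68.1%, 38.6% and 66.2% unthinned), and 0 of 205, 0 of 681 and 2 of 350 basal keratinocytes did. Cyp2g1 followed, at 38%, 18.3% and 34.4% of thinned members.

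The same direction was found for the cytochrome Cyp2b19 at 907.7, 221.8 and 772.1 CPM, for the retinol dehydrogenase Sdr16c5 at 2948, 1715 and 3246 CPM, and for the proteoglycan Podn at 339.3, 56.1 and 353.0 CPM. Carns1, which makes carnosine, was at 322.4, 14.04 and 157.2 CPM from 76, 5 and 57 UMIs. Agmo, which cleaves alkylglycerol ethers, was at 114.5, 25.3 and 159.9 CPM. Cyp2b19 stood at 51.1, 98.9 and 52.4 CPM in the other kept cells, the opposite order from the sebocytes.

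Of the peroxisomal list, 3 of 12 tested genes were lower in GelMA and 1 higher, and the activating enzyme Acsbg1 was lower. Acsbg1 (ENSMUSG00000032281), an acyl-CoA synthetase, was at 4738, 2695 and 4856 CPM, a log2 ratio of -0.81 (-0.94 to -0.69), and Acox3, a peroxisomal oxidase, at 1417, 822.5 and 1481 CPM (-0.78, from -1.02 to -0.55). Catalase (Cat) was at 674.4, 398.6 and 661.8 CPM and the thiolase Acaa1b at 106.0, 44.9 and 137.9 CPM. Acaa1a was the higher gene of the peroxisomal list, and the list median was -0.17. In the other kept cells these genes were lower too, with log2 ratios of GelMA over untreated of -0.42 for Acsbg1 (-0.48 to -0.36), -0.66 for Acox3 (-0.77 to -0.55) and -0.54 for Cat (-0.63 to -0.44).

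Fatty acid uptake and binding genes other than Acsbg1 were close to level, with 1 of 13 tested genes higher (Acsl1) and Acsbg1 the 1 lower. Fabp5, a fatty acid binding protein, was at 1680 CPM in untreated and 1682 in GelMA sebocytes. Plin2, which coats lipid droplets, was at 1921, 1752 and 1737 CPM and Cidea within 1.5 times across libraries, so Plin2 and Cidea did not follow the lipases. Gpam, a gene of the assembly list, was at 1052, 1036 and 1100.3 CPM.

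AN-GelMA sebocytes against GelMA sebocytes showed mostly the mirror image, as the 2 comparisons share the GelMA library and untreated and AN-GelMA levels were close. There were 633 genes (13.5%) at least 1.5 times higher and 560 (11.9%) lower, 62 (1.32%) and 54 (1.15%) with the interval wholly past it, 2.47% in all. Mgll was 1.11 lower on the log2 scale (1.20 to 1.01 lower), Pnpla5 0.77 lower (0.94 to 0.60), Soat1 0.76 lower (0.87 to 0.64) and Insig1 0.91 lower (1.15 to 0.67). Acsbg1 was higher by 0.85 (0.74 to 0.96), Acox3 by 0.85 (0.64 to 1.06) and Serpina3j by 1.79 (1.59 to 2.00). By list, 4 of 12 peroxisomal genes were higher and 1 lower, 0 of 12 elongation genes higher and 2 lower, and 2 of 11 droplet and lipase genes higher and 3 lower. The Pnpla5 difference was lost under the choice of members by genes outside the rule, at 0.02.

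Awat1, a wax synthase, was highest in AN-GelMA, at 267.2, 227.4 and 501.9 CPM, a log2 ratio over GelMA of 1.14 (0.76 to 1.54), from 81 and 182 UMIs. One AN-GelMA member held 38 of those 182 UMIs. Hilpda, a lipid droplet protein that inhibits lipolysis, was at 131.5, 103.9 and 209.6 CPM, a ratio of 1.01 (0.43 to 1.62). Of the list of 13, 2 assembly genes were higher (Awat1 and Dgat2) and 2 lower (Dgat1 and Gpat4).

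AN-GelMA and untreated sebocytes were the closest pair by count: 375 genes (7.98%) were at least 1.5 times higher and 361 (7.68%) lower, and only 4 (0.0851%) and 12 (0.255%) had the interval wholly past it, 0.341% in all. In counts simulated for this pair, again without spread between cells, 11.63% of unchanged genes passed 1.5 times, against 15.7% of tested genes measured here. The 4 genes that were higher with the interval wholly past 1.5 times act on lipids. Far1, which makes fatty alcohols in the peroxisome, was at 636.2 CPM in untreated, 1036 in GelMA and 1511 in AN-GelMA sebocytes, a log2 ratio of AN-GelMA over untreated of 1.25 (0.98 to 1.52). Ddhd1, a phospholipase, was at 131.5, 216.2 and 358.5 CPM (1.45, from 0.87 to 2.06), Pla2g4e, another phospholipase, at 203.6, 154.4 and 457.8 CPM (1.17, from 0.70 to 1.66), and Sgpp2, a sphingosine phosphate phosphatase, at 29.7, 39.3 and 115.8 CPM (1.96, from 0.80 to 3.36). Far1 kept this direction in the alternatives run, at 0.95 to 1.62, and Pla2g4e fell to 0.62 without members that hold other cell types' markers. The Far1 RNA was uneven between cells: 55 of 148 AN-GelMA members held a UMI and the highest reached 226 per 10000, against 109 in the untreated library.

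Of the 12 genes lower in AN-GelMA than in untreated sebocytes, most were carried largely by 1 untreated cell, cornified-envelope genes among them. That member, with 7759 UMIs, 2 of Far2, 4 of Scd1 and 0 of Soat1, held 144 of the 149 Lor UMIs of untreated members, 99 of 100 Lce1m, 82 of 89 Crct1 and 46 of 51 Cpa4 UMIs. Loricrin (Lor) was at 632.0, 64.6 and 19.3 CPM in untreated, GelMA and AN-GelMA sebocytes with it. Without it the log2 ratio of Lor in GelMA over untreated turned from -3.29 to 1.56, and in AN-GelMA over untreated went from -5.03 to -0.18. Tnnt3, a muscle gene, lay in a similar position, with 23 of its 48 untreated UMIs in 1 member, and its AN-GelMA over untreated ratio turned from -3.40 to 0.06 without members that hold other cell types' markers.

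**Figure D4:**
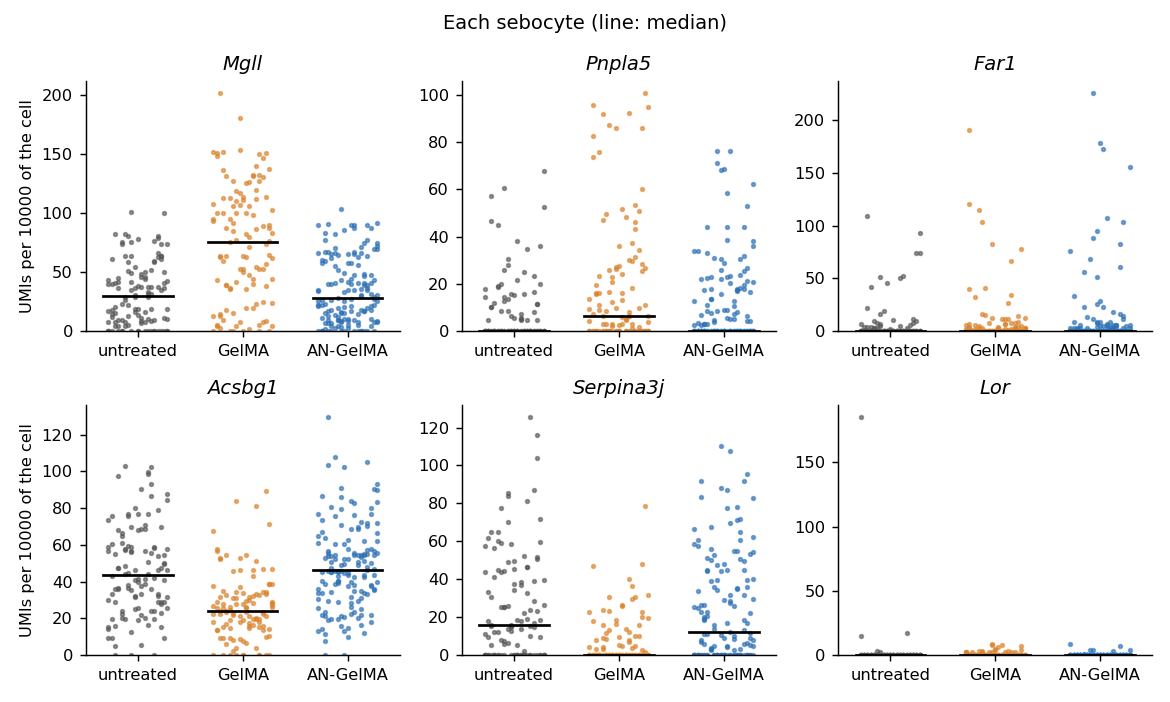
UMIs per 10000 UMIs of the cell for 6 genes, 1 point per sebocyte, with the library median as a line. The medians of Mgll and Acsbg1 were 76.0 and 23.9 in the GelMA library against 30.0 and 43.3 in the untreated one, with overlapping cells. Far1 rests on a minority of cells, and the untreated Lor level on 1 cell.

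Members differed in the balance of early and late sebocyte genes within each library. A late share was taken for each cell as the UMIs of 18 late genes (among them Mgll, Soat1, Plin2, Elovl3 and Acsbg1) over those of late and 18 early genes (among them Krt14, Krt5 and integrins); the rule genes are in neither list. Pooled, it was 82.8% in untreated (81.8 to 83.7), 86.5% in GelMA (85.8 to 87.1) and 83.3% in AN-GelMA sebocytes (82.6 to 84.1). Cell by cell it ran from 18.0%, 29.7% and 33.3% to a library median of 84.6%, 87.5% and 82.8%. The untreated cell at 18.0% is the member with 7759 UMIs that held most of the Lor UMIs. The GelMA value rests in large part on Mgll, which was 30.8% of its late UMIs against 18.45% untreated and 17.6% AN-GelMA: with Mgll left out of the list the pooled shares were 79.6%, 81.5% and 80.5%. Krt14, the basal keratin, was 2770 CPM in untreated, 2487 in GelMA and 2816 in AN-GelMA sebocytes and nearly level.

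The 378 members were divided at 79.96% and 87.8% into 3 bands of 126 cells, which are ranges of a score and not cell types, since 116 members lay within 2 points of a cut. The upper band held 33 of 116 untreated (28.4%, 20.5 to 37.6), 54 of 114 GelMA (47.4%, 37.9 to 56.9) and 39 of 148 AN-GelMA members (26.4%, 19.5 to 34.2). With Mgll left out of the score the upper band held 36.2%, 35.1% and 29.7%, and the higher GelMA share was no longer seen. Over all libraries the median depth was 2050.5 UMIs in the lower and 2923 in the upper band. In the untreated library alone it was 1822 and 1672, so the upper band was not the deeper one there. The untreated lower band, which holds the cell with most Lor, was also richest in suprabasal markers. They summed to 4717, 1130 and 1668 CPM in its lower, middle and upper band. In GelMA and AN-GelMA members they were highest in the upper band, at 2905 and 1972 CPM. The part of such cells in the bands was not tested.

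Of 4669 tested genes outside the rule and the 2 score lists, 150 (3.21%) were higher in the upper than the lower band in all 3 libraries with the pooled interval wholly past 1.5 times, and 136 (2.91%) lower. Elovl4 was at 534.0, 2098 and 2665 CPM in the lower, middle and upper band of the untreated library, 315.1, 2173 and 4334 in GelMA and 1285, 1491 and 5362 in AN-GelMA, a pooled log2 ratio of upper over lower of 2.38 (2.18 to 2.58). The order lower, middle, upper held in all 3 libraries. Dgat2l6, an acyltransferase of the wax synthase family, rose by 3.22 on the log2 scale, the fatty acid omega-hydroxylase Cyp4f39 by 2.79, Pla2g4e by 2.83, Pctp, which carries phosphatidylcholine, by 2.72 and Dhcr7 by 2.40. Of the lists, 5 of 10 elongation genes passed this mark, with 2 of 9 assembly genes higher (Dgat2l6 and Agpat3) and 1 lower (Gpat4).

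Some genes of ceramide synthesis rose with the late share, in a set named after its values were seen. Of 9 tested, 4 passed this mark (Sptlc3, Sptssa, Kdsr and Cers5), 0 were lower, and Cers2 and Cers4 leaned the other way, at -0.67 and -0.11. Cers5, a ceramide synthase, was at 253.0 CPM in the lower and 748.3 in the upper band of all members, and Kdsr at 306.3 and 742.7. Fa2h rose by 1.06 (0.90 to 1.22), Fasn by 0.87 and Acacb by 0.85. Pparg did not, at 685.8, 682.5 and 692.3 CPM in the lower, middle and upper band of all members.

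Falling with the late share were Car12, a carbonic anhydrase, at 456.1, 201.7 and 61.7 CPM over all members (-2.89, from -3.61 to -2.23), the phosphatase Ptprs (-2.92) and Apoe, a lipid carrier, at 1638, 880.8 and 608.2 CPM (-1.43, from -1.67 to -1.20). Notch1, Fgfr1, the vitamin D receptor Vdr, Ddx21, Gar1 and Noc2l fell as well; the genes of these sentences were picked after their values were seen. All of these were lower in the upper band of each library.

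**Figure D5:**
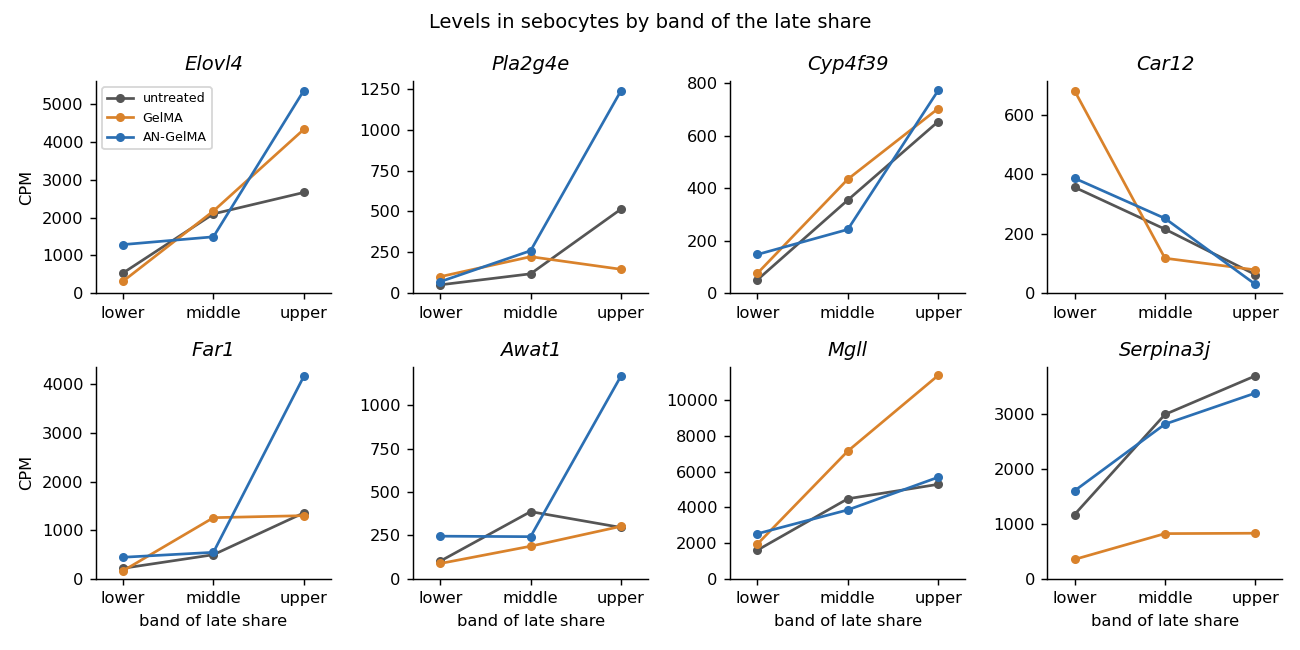
CPM of 8 genes in the lower, middle and upper band of the late share, 1 line per library. Elovl4, Cyp4f39 and Pla2g4e are outside the score; Far1, Awat1 and Mgll are in its late list, so their rise is partly built in. Serpina3j rises in each library and stays lowest in GelMA, at 829.3 CPM in the upper band against 3693 untreated and 3379.7 AN-GelMA.

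Library differences were then read inside the bands. Acsbg1 was lower in GelMA than in untreated sebocytes in all 3, with log2 ratios of -1.06, -0.71 and -0.95 from lower to upper, and Serpina3j likewise with -1.73, -1.86 and -2.15. Mgll differed mainly in the later cells, with 0.28, 0.67 and 1.11. With bands scored without Mgll its levels were 2527, 2928 and 2977 CPM in the lower band of the untreated, GelMA and AN-GelMA members, 4343, 8820.2 and 3339 in the middle, and 4436, 11174 and 5434 in the upper. Insig1 differed in the upper band alone, with -0.19, -0.01 and 1.23, and Pnpla5 in the middle and upper bands, with -0.01, 0.71 and 0.90. Far1 in AN-GelMA over untreated sebocytes was 1.03, 0.14 and 1.62, with 4163 CPM in the upper AN-GelMA band against 1356 untreated and 1299 GelMA. Mgll, Pnpla5, Acsbg1 and Far1 are in the late list that sets the bands, so their values inside bands depend partly on their own counts. Of these, only Mgll was scored again without itself.

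Over all genes with the interval wholly past 1.5 times between GelMA and untreated sebocytes, 44 of 54 higher and 62 of 83 lower genes kept their direction in each band. Between AN-GelMA and GelMA sebocytes these were 57 of 62 and 37 of 54, and between AN-GelMA and untreated sebocytes 4 of 4 and 4 of 12. The genes were chosen on the sum of the same cells, so keeping the direction is partly built in, and the bands share the libraries of the first comparison. These counts describe where a difference lies and add no replicate.

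Cell-cycle genes were low in sebocytes. Members with 3 or more UMIs of 18 cycle genes were 3 of 116 untreated (2.59%), 12 of 114 GelMA (10.53%) and 6 of 148 AN-GelMA (4.05%), against 15.9%, 16.9% and 11.9% of the other kept cells. Their summed level was 140.0, 519.4 and 179.2 CPM in members and 995.0, 994.5 and 798.1 CPM in the other cells. The 6 GelMA members with 10 or more such UMIs held 121 of that library's 185, and the GelMA level was 1727 CPM in the lower band of the late share against 172.1 in the upper. GelMA members were also the deepest, and the part of depth in these shares was not tested.

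Beyond the lists, the 10 highest and 10 lowest ratios were mostly of sparsely counted genes. Higher in GelMA than in untreated sebocytes were Tchh, Krt17, Arhgef4, Cst6, Cbarp, Casp14, Gsap, Cd44, Rnpep and Timm23, at 2 to 24 untreated UMIs each. Cd44, the hyaluronan receptor, was at 101.8, 387.4 and 162.7 CPM in untreated, GelMA and AN-GelMA sebocytes, a log2 ratio of 1.93 (1.30 to 2.62), and was found in 10.3%, 53.5% and 25% of members. Casp14, a caspase of cornification, rested on 1 GelMA cell with 91 of 135 UMIs. Lower in GelMA, beside the genes of the untreated cell with Lor, were Carns1, Alox12e, Slfn4, Nck1 and Cobl; Alox12e, an epidermal lipoxygenase, was at 169.7, 11.2 and 135.1 CPM from 40, 4 and 49 UMIs. Higher in AN-GelMA than in GelMA sebocytes were Alox12e, Slfn4, Carns1, Ccdc136, Nck1, Agmo, Podn, Serpina3b, Smarcc1 and Calml3, and lower were Tchh, Id4, Syngr2, Krtdap, Acsf2, Tpm1, Casp14, Cab39, Gsap and Tlcd2.

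Markers of other cells moved with the GelMA library and are given as measured. The hair list summed to 55.1, 993.8 and 30.3 CPM in untreated, GelMA and AN-GelMA members and to 625.8, 9763 and 96.1 in the other cells. Tchh, a protein of the inner root sheath, was found in 57.0% of GelMA members and in 58.0% of GelMA basal keratinocytes (22.02% and 37.6% after thinning). In the untreated library the unthinned shares were 4.31% and 20.2%, and in the AN-GelMA library 2.03% and 13.7%. Basal keratinocytes were taken without a limit on Krt35 and Krt71, so hair cells may be among them and their share is not a background level. Of 16 hair markers measured, 10 were at 0 in untreated and 13 in AN-GelMA members, and 0 in GelMA members. Suprabasal genes summed to 2473, 2437 and 1489 CPM, but 1 untreated member held 275 of its 583 UMIs, and without the top member of each library they summed to 1351, 2068 and 1384 CPM, so untreated was then the lowest. Flg was at 271.4, 819.7 and 209.6 CPM, and Krt17 was at 12.7, 176.9 and 55.2 CPM from 3, 63 and 20 UMIs, a log2 ratio of GelMA over untreated of 3.797 (2.18 to 6.11). Their part in the GelMA differences was not tested.

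Macrophage markers summed to 118.8, 75.8 and 173.7 CPM in members, with 4, 4 and 2 of 12 genes at 0, and neutrophil markers to 55.1, 61.8 and 35.9 CPM, with 6, 5 and 7 of 11 at 0. Adipocyte markers summed to 224.8, 362.1 and 184.8 CPM, with 5, 4 and 6 of 12 at 0. Fibroblast markers summed to 623.5, 440.8 and 518.4 CPM, endothelial markers to 89.1, 42.1 and 30.3, T and NK markers to 21.2, 5.61 and 13.8, skeletal muscle markers to 330.8, 241.4 and 74.5 (150.4, 236.8 and 69.3 without the top member of each library), and melanocyte and Schwann markers to 67.9, 78.6 and 38.6.

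Mitochondrially encoded genes also separated GelMA. They made up 1.80% of member UMIs in untreated, 3.10% in GelMA and 1.71% in AN-GelMA sebocytes, and 0.831%, 0.971% and 0.853% in the other kept cells. In the upper follicle keratinocytes described below they made up 1.07%, 1.66% and 0.964%, and in basal keratinocytes 1.22%, 1.26% and 1.19%. Of 13 such genes 12 were higher in GelMA than in untreated sebocytes, with mt-Nd1 at 882.2, 2723 and 1031 CPM; mt-Nd6, alone on the other strand of the genome, was lower, at 3385, 2442 and 3017. The same 12 were also higher in GelMA in the other kept cells, with mt-Nd1 at 272.5, 542.9 and 301.9 CPM. There mt-Nd6 was lower too, at 3454, 1155 and 3297 CPM. Mitochondrial genes are 8 of the 54 genes higher in GelMA sebocytes with the interval past 1.5 times. Genes of pre-mRNA splicing, chosen after their values were seen, went the other way: Luc7l2 was at 2049, 940.5 and 2010.3 CPM, Clk4 at 844.0, 390.2 and 857.6, and Son at 500.5, 219.0 and 402.6. In the other kept cells Luc7l2 was at 1148, 783.4 and 1031 CPM and Clk4 at 302.8, 315.9 and 264.9, so Luc7l2 was lowest in GelMA there too and Clk4 was not. With rule genes and mitochondrial genes left out of the total, 688 genes were at least 1.5 times higher in GelMA than in untreated sebocytes and 634 lower; this rescales all genes alike.

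Wound-response lists were sparse in sebocytes. Only 1 of 31 epithelial alarm genes reached 50 UMIs, Krt17, and the list summed to 169.7, 645.7 and 259.2 CPM against 2038, 2877 and 2365 CPM in the other cells, with 15, 5 and 14 genes at 0. Among interferon and MHC class I genes, H2-K1 was at 984.0, 895.5 and 733.5 CPM and of 6 tested 1 was higher in GelMA, Irf9, at 59.4, 174.1 and 91.0 CPM, with B2m and Oasl2 lower. Of 5 tested immediate early and heat shock genes 2 were higher in GelMA, Hspa8 and Zfp36, and Jund was lower. Of 7 glycolysis and hypoxia genes 2 were higher and 1 lower, and Vegfa was level at 415.7, 452.0 and 441.2 CPM.

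Nearby cell kinds placed some of these values. Upper follicle keratinocytes, taken as cells with 3 or more Krt79 and at least 1 Gata6 UMI, numbered 90, 157 and 131. Gata6, a factor of the gland duct, was at 0, 2.81 and 16.5 CPM in sebocytes. Its 581.0, 523.8 and 627.7 CPM in the upper follicle cells is built in, since they were chosen on Gata6. Adipocytes numbered 20, 47 and 20. Mgll was at 287.3, 304.9 and 194.5 CPM in them, a log2 ratio of GelMA over untreated of 0.09 (-1.20 to 1.56), whose wide interval also holds the 1.14 of sebocytes. The ratio was 1.15 (0.29 to 2.10) in upper follicle keratinocytes, at 61.6, 136.6 and 39.0 CPM, and 1.44 (0.80 to 2.14) in basal keratinocytes, at 46.3, 125.2 and 32.7 CPM, so GelMA was highest in both, as in sebocytes. Fasn by contrast was at 656.7, 4704 and 933.7 CPM in adipocytes, a ratio of 2.84 (2.12 to 3.66), above the 0.73 of sebocytes. Serpina3j was at 0 CPM in the adipocytes of each library and at 4.40, 0 and 0 CPM in upper follicle cells. Over all other kept cells it was at 9.25, 1.53 and 5.75 CPM, low throughout and lowest in GelMA as in the sebocytes; how much of that is free sebocyte RNA was not tested.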

How the data were processed

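Single cells of 3 libraries, 1 per group, were measured with probe-based 10x Flex. The deposited matrices hold UMI counts per probed gene and cell; per the file headers the software was Cell Ranger 10.0.0, and the genome build was GRCm39, per the submitters' processing notes. The files of the AN-GelMA library carry the word Heat in their names, which the labels do not explain; groups were taken from the labels.

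A cell was kept when it showed 250 or more genes and no more than 10% of its UMIs were mitochondrial. The members and the gene lists were chosen with earlier results of these data known. UMIs were summed over members, divided by their total and given as CPM. Ratios between libraries carry exact conditional binomial intervals and shares exact Clopper-Pearson intervals, at 95%, for counting error only. Genes with at least 50 member UMIs were compared with a ratio of 1.5; a count of 0 was taken as 3 UMIs and gives a bound. Groups of 1 library leave no test across samples, and the 3 comparisons share libraries. Named genes are list members and the 10 highest and 10 lowest ratios per comparison among those whose interval lies wholly past 1.5. The 15 genes with the largest smallest ratio over other cells are named too. Genes of pre-mRNA splicing and of ceramide synthesis, and the genes named for the bands of the late share, were added after their values were seen. Cyp2b19 and Sdr16c5 are named but are in none of these groups. The lists were those for sebocyte markers, early and late genes, 7 lipid groups and their regulators, holocrine lysosome, cell cycle, stress, wound, glycolysis and interferon genes, and 11 sets of other cell types. Promoters were matched by symbol in a RefSeq table on GRCm38.p6, which gave 3806 of 4698 tested genes; no coordinate was converted. The interval code was tested on simulated counts, drawn from the pooled profile of all members without spread between cells. There, unchanged genes passed 1.5 times in 12.85% for GelMA over untreated, 9.004% for AN-GelMA over GelMA and 11.63% for AN-GelMA over untreated. Python 3.11.15, numpy 2.4.6, scipy 1.17.1, pandas 2.3.3, scanpy 1.11.5 (Scrublet) and matplotlib 3.10.9 were used. Some list genes are not reported here.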

Additional observations from a re-analysis of the deposited data

How the results depend on the processing

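No paired analysis was possible because there is only 1 library in each group. The numbers of genes at least 1.5 times higher and lower were 643 and 721 for GelMA over untreated, 633 and 560 for AN-GelMA over GelMA, and 375 and 361 for AN-GelMA over untreated. With genes of 1 UMI or more they were 2324 and 2573, 1865 and 2573, and 1657 and 2316; with 200 UMIs or more 98 and 135, 140 and 67, and 35 and 10. With members thinned to 2000 UMIs they were 347 and 397, 366 and 239, and, for AN-GelMA over untreated, 202 lower; with members chosen by genes outside the rule 1481 and 1269, 1271 and 1306, and 860.0 and 695; with the looser rule 981 higher in GelMA than untreated. Sebocyte shares, in the order untreated, GelMA, AN-GelMA, were 13.0%, 5.31% and 9.89% among Krt5 and Krt14 cells and 1.29%, 0.734% and 1.10% under the stricter rule. The AN-GelMA share was 1.86% with cells thinned to 1000 UMIs, and under genes outside the rule the GelMA and AN-GelMA shares were 3.02% and 1.83%. Late shares were 84.4% untreated and 84.2% AN-GelMA after thinning, 93.4%, 94.1% and 93.4% without Krt5 and Krt14, 79.4%, 84.6% and 80.4% without Fabp5, Mgst1 and Plin2, and 79.6%, 81.5% and 80.5% without Mgll, the last chosen after seeing the data.

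Some genes changed the sign of their log2 ratio. For GelMA over untreated these were Crct1 at 1.11, Gpsm1 at 0.30 and Lor at 1.96 under the stricter rule, Cobl at 0.21, Cpa4 at 0.40 and Gpsm1 at 0.22 under the looser rule, and Casp14 at -0.36, Cobl at 0.18, Lor at 2.25 and Nck1 at 0.19 under genes outside the rule. Without the 5% deepest members Crct1 was at 0.58 and Lor at 1.53. For AN-GelMA over untreated, Crct1, Gpsm1 and Lor were each at 0.24, Eid3 at 1.36 and Lce1m at 1.83 under the stricter rule, Cpa4 at 0.41 under genes outside the rule, Eid3 at 0.77 and Lce1m at 2.39 without the 5% deepest members, and Tnnt3 at 0.44 without the 5% of highest doublet scores and at 0.060 without members that hold other cell types' markers. For AN-GelMA over GelMA, Casp14 was at 0.17 under both the looser rule and genes outside the rule, Calml3 at -0.56 and Pnpla5 at 0.018 under the latter, and the wound and alarm list median at 1.55 under the looser rule. Alternatives added after seeing the data gave, without each gene's highest member, Cpa4 0.047, Crct1 0.56 and Lor 1.44 for GelMA over untreated and Eid3 0.59 and Lce1m 2.13 for AN-GelMA over untreated. Without the untreated member with most Lor they gave Lor 1.56, Crct1 0.72, Cpa4 0.20, Eid3 0.92 and Lce1m 2.33, in the same comparisons. The cause was not tested. No cell cycle gene reached 50 member UMIs, so that list had no median to set beside its alternatives. Leaving aside filters and rescalings, which cannot move single genes apart, 453 of 600 planned gene values stayed within their counting interval, 121 moved further and 26 changed sign; under genes outside the rule 15 of 75 stayed, 52 moved and 8 changed sign. Depth limits the sparse genes most, since 1 UMI is 2.76 to 4.24 CPM in these members.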
